A study of Mus musculus with 8 samples.

Results

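Described here are 37 mouse genes of the amino acid response, together with cytosolic tRNA synthetases, in the retina at postnatal day 5. They were taken by symbol from the deposited table of read counts, which holds 16109 genes. All 37 were present and all 37 passed the filter on low counts, as did 15850 genes in all. The set comprises 6 stress transcription factors and early targets, 8 enzymes of amino acid synthesis, 5 one-carbon enzymes, 7 amino acid transporters and 11 synthetases. The study profiled whole retinas, freed of the embryonic hyaloid vessels, to compare gene expression during retinal vascular development. It has 4 libraries labelled WT (wild type) and 4 labelled C3 KO, all from C57BL/6 mice at postnatal day 5, with no treatment named in the labels. C3 encodes the complement protein on which all activation routes of the cascade converge. The labels give neither the C3 allele nor the sex of the animals nor how many animals stand behind a library, so p-values measure the spread between these libraries.

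A cell that runs short of an amino acid accumulates uncharged tRNA, which activates the kinase GCN2 (gene Eif2ak4). GCN2 and related kinases phosphorylate the translation factor eIF2, which slows protein synthesis in general but raises translation of the transcription factor ATF4. ATF4 pairs with C/EBP proteins on a short DNA element and switches on genes that make, import and charge amino acids, among them most of the genes described here. The serine and one-carbon enzymes also supply folate-bound carbon for nucleotide synthesis, which dividing cells need, and the retina at this age still holds dividing progenitors. Because much of ATF4 control acts on translation, the Atf4 mRNA is only a partial readout of the protein.

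The libraries held between 16503564 and 19608824 counted reads. The retinal transcription factors Pax6, Rax, Crx and Nrl were present in every library. C3 itself went against the labels, with 33 to 55 reads in the libraries labelled WT and 1419 to 1718 in those labelled C3 KO. Directions are therefore those of the libraries labelled C3 KO against those labelled WT. Sex-linked RNA also moved with the label. The mean of 4 Y-linked genes was 0.448, 5.05, 75.8 and 3.71 CPM in WT-labelled replicates 1 to 4, and 74.8 to 88.2 CPM in the KO-labelled libraries. The level of Xist, an RNA of the inactive X chromosome, was 2441, 2369, 295 and 2195 CPM in WT-labelled replicates 1 to 4 and 1.48 to 2.65 CPM in the KO-labelled libraries, with no overlap. WT-labelled replicate 3 was thus high in Y-linked RNA and still far above every KO-labelled library in Xist. CPM here are counts divided by the TMM-scaled depth of their library, so that libraries can be compared. In the KO-labelled libraries 11 of 15 pigment epithelium and melanocyte markers were higher, with a summed level of 283.0 to 308.8 CPM against 103.1 to 157.3. Of 12 microglia markers 3 were higher (sum 202.8 to 243.8 against 159.2 to 202.5 CPM), and of 5 fibroblast and sclera markers 3 were higher (sum 201.0 to 236.5 against 151.4 to 191.5 CPM). Pdgfra is counted among the latter and also in the glial list that follows. The 8 astrocyte and Mueller glia markers were split, 4 with positive and 4 with negative log2 fold changes, from −0.41 to 0.71. Called higher were 3, Gfap, Pdgfra and Clu, and 0 were called lower by edgeR but 1 by DESeq2. The summed levels of the list overlapped (922.8 to 958.9 against 872.9 to 951.3 CPM). All 5 red blood cell markers measured were lower (sum 18.1 to 23.2 against 28.5 to 51.2 CPM). No marker of these lists was at 0 in any library. Their part in the results on amino acid genes was not tested.

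Of the 37 genes, 5 were called different at an adjusted p below 0.05, with 3 higher and 2 lower in the KO-labelled libraries. That is 13.5% of the set. Over all genes tested 14.3% were called, 8.33% higher and 5.98% lower, so the share among the amino acid genes is near the background and is no result about them as a set. Called higher were Asns, Slc3a2 and Cars, and called lower were Shmt2 and Cth. The same 5 genes were those without overlap between the labels, which held for 17.4% of all genes tested. The median log2 fold change of the 37 genes was 0.04, against 0.00 over all genes, and 19 of the 37 lay within 0.1 of zero on the log2 scale. Every one of the 5 called changes was below 1.4-fold. Without WT-labelled replicate 3, the library of that label with high Y-linked counts, 2 of the 37 were called (Asns and Shmt2), beside 10.7% of all genes. The same pair was called without WT-labelled replicate 2 (9.75% of all genes) or KO-labelled replicate 2 (14.4%), and Cth beside it without KO-labelled replicate 3 (9.73%) or 4 (8.19%). In RNA of whole retinas, fewer cells of a type and less RNA per cell cannot be told apart.

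**Figure D1:**
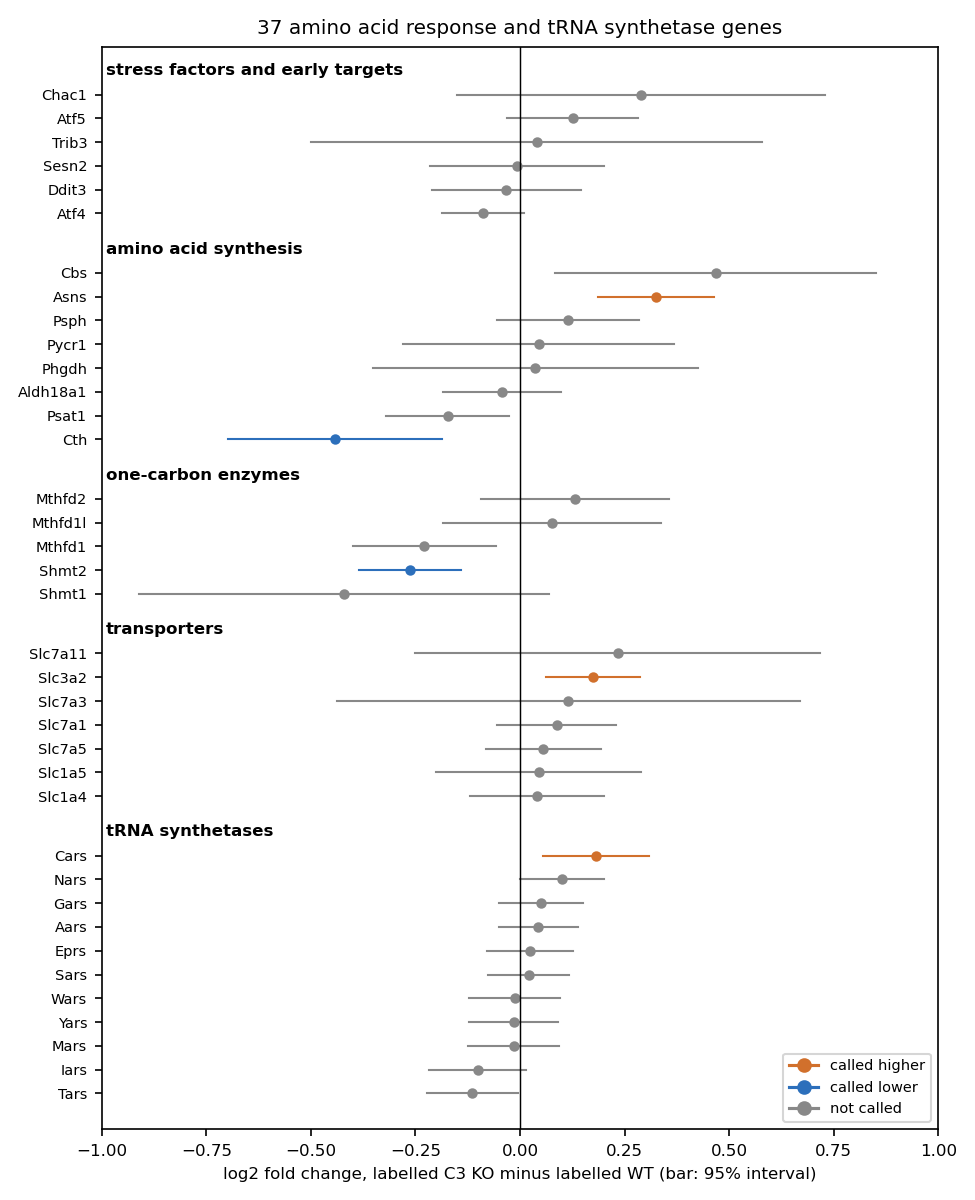
The horizontal axis gives the log2 fold change (libraries labelled C3 KO minus labelled WT) of each of the 37 genes, with its 95% interval from the edgeR fit, grouped by role. Asns, Slc3a2 and Cars (orange) lie above zero and Shmt2 and Cth (blue) below, while the 10 synthetases that were not called have short intervals, reaching from −0.22 to 0.20 at most.

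None of the 6 stress transcription factors and early targets was called by edgeR, and none had an unadjusted p below 0.05 in edgeR, DESeq2 or limma-voom. Atf4, the master activator of the response, stood at 273, 294, 263 and 284 CPM in WT-labelled replicates 1 to 4 and at 260, 275, 258 and 254 CPM in KO-labelled replicates 1 to 4. The ranges overlapped, with WT-labelled replicates 1 and 3 inside the KO-labelled range. The log2 fold change was −0.09 ± 0.05 (SE) with a 95% interval from −0.19 to 0.01 (edgeR adjusted p = 0.225). Atf5, a related factor that stress also induces by translation, stood at 32.7, 27.4, 29.3 and 32.6 CPM under the WT label and at 32.5, 31.3, 35.6 and 33.8 CPM under the KO label. Its labels overlapped as well, with a log2 fold change of 0.13 (95% interval −0.03 to 0.28, edgeR adjusted p = 0.288).

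Chac1, an ATF4 target that degrades glutathione, was a rare transcript at 2.31, 2.39, 2.71 and 2.53 CPM under the WT label. Under the KO label replicates 1 to 4 stood at 2.597, 2.499, 3.27 and 3.81 CPM. The higher values came from KO-labelled replicates 3 and 4, and replicates 1 and 2 lay within the WT-labelled range. The log2 fold change of 0.29 had an interval from −0.15 to 0.73 (edgeR adjusted p = 0.401). This holds both zero and the value of Asns, so a difference of that size was neither shown nor excluded. Trib3, the pseudokinase that feeds back on ATF4, was also rare and had an interval from −0.50 to 0.58. Ddit3, which encodes the death-linked factor CHOP, had a log2 fold change of −0.03 (−0.21 to 0.15). Sesn2, a leucine sensor that restrains mTORC1, had one of −0.01 (−0.22 to 0.20).

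Among the 8 enzymes of amino acid synthesis, Asns was called higher and Cth lower. Asns makes asparagine from aspartate and glutamine and is among the best known targets of ATF4. It stood at 44.1, 47.2, 42.7 and 41.0 CPM in WT-labelled replicates 1 to 4 and at 49.8, 53.2, 59.6 and 56.7 CPM in KO-labelled replicates 1 to 4. Every KO-labelled library was above every WT-labelled one. The mean was 43.8 ± 2.62 CPM under the WT label and 1.252-fold higher under the KO label, at 54.8 ± 4.29 CPM (SD, n = 4). On the log2 scale the difference was 0.32 ± 0.07 (SE), with an edgeR adjusted p = 0.00221. Asns kept its call in all 8 fits that each left out 1 library, with log2 fold changes from 0.28 to 0.37.

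Cth, which releases cysteine from cystathionine in the last step of transsulfuration, moved the other way. It stood at 9.74, 12.8, 12.3 and 11.8 CPM under the WT label and at 8.91, 7.34, 8.63 and 9.38 CPM under the KO label. The labels did not overlap, but WT-labelled replicate 1 lay close to KO-labelled replicate 4. The mean was 11.6 ± 1.34 CPM under the WT label and fell to 8.56 ± 0.873 CPM (SD, n = 4). On the log2 scale the difference was −0.44 ± 0.12 (SE), with an edgeR adjusted p = 0.0180. The call was lost without WT-labelled replicate 2, WT-labelled replicate 3 or KO-labelled replicate 2 (edgeR adjusted p = 0.0562, 0.0506 and 0.0518).

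Cbs, which makes cystathionine in the step before Cth, had the highest log2 fold change of the 37 genes, 0.47 ± 0.18 (SE), and was not called (edgeR adjusted p = 0.0951). Its levels were 3.02, 3.14, 2.82 and 4.28 CPM under the WT label, and under the KO label 4.53, 4.48, 3.89 and 5.40 CPM. The WT-labelled libraries other than replicate 4 lay below all KO-labelled ones, and replicate 4 lay above KO-labelled replicate 3. Without that WT-labelled replicate 4 the log2 fold change was 0.60 and Cbs was called (edgeR adjusted p = 0.0476). Cbs is the only one of the 37 genes on chromosome 17, which also carries C3, and lies 25.6 Mb from it in GRCm38.

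Of the serine synthesis enzymes none was called. Phgdh, which commits 3-phosphoglycerate to serine, had a log2 fold change of 0.04 (95% interval −0.35 to 0.43). Psph, which catalyses the final step, had one of 0.11 (−0.06 to 0.28). Psat1, the aminotransferase between them, had one of −0.17 ± 0.07 (SE), with an edgeR adjusted p = 0.109. It stood at 63.8, 81.8, 76.4 and 85.9 CPM under the WT label and at 69.1, 66.9, 70.2 and 66.7 CPM under the KO label, so that WT-labelled replicate 1 lay below all KO-labelled libraries and the rest of its label above them. Without that library Psat1 was called lower, with a log2 fold change of −0.25 (edgeR adjusted p = 0.00462). Psat1 was chosen for this detail after its values were seen. The proline enzymes Aldh18a1 and Pycr1 had log2 fold changes of −0.04 and 0.04.

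Of the 5 one-carbon enzymes 1 was called lower, and the median log2 fold change was −0.23. Shmt2, the mitochondrial enzyme that splits serine into glycine and a one-carbon unit, stood at 78.7, 88.2, 84.8 and 92.6 CPM under the WT label. Under the KO label it stood at 68.0, 76.8, 71.4 and 70.3 CPM. All KO-labelled libraries were below all WT-labelled ones, with the highest of the former close to the lowest of the latter. The mean was 86.1 ± 5.87 CPM under the WT label and fell 1.20-fold to 71.6 ± 3.73 CPM (SD, n = 4). On the log2 scale the difference was −0.26 ± 0.06 (SE), with an edgeR adjusted p = 0.00394. Leaving out 1 library at a time kept the call in 8 of 8 fits, with log2 fold changes from −0.31 to −0.23. In GRCm38 the exons of Shmt2 share 32 bases with Ndufa4l2 on the other strand, a gene that was itself lower, with a log2 fold change of −0.44 (edgeR adjusted p = 0.0361). The libraries were directional, but the labels do not say whether counting used the strand. How reads over those bases were counted is thus unknown, and their part in the Shmt2 value was not tested. Such overlaps are not particular to Shmt2. Among genes not called, Psph shares 452 bases with Cct6a, Shmt1 184 with Smcr8, Atf5 82 with Nup62 and Mars 68 with Ddit3.

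Mthfd1, the cytosolic enzyme with 3 activities in folate interconversion, stood at 23.9, 28.8, 28.1 and 28.2 CPM under the WT label and at 22.8, 21.6, 24.3 and 24.4 CPM under the KO label. As for Psat1, WT-labelled replicate 1 was the low library of its label and the remaining ones lay above every KO-labelled library. The log2 fold change was −0.23 ± 0.08 (SE) with an edgeR adjusted p = 0.0654, and without WT-labelled replicate 1 it was −0.29 (edgeR adjusted p = 0.0185). Shmt1, the cytosolic counterpart of Shmt2, was rare, at 2.56, 3.73, 3.77 and 6.70 CPM under the WT label and at 2.70, 3.23, 2.93 and 3.58 CPM under the KO label. WT-labelled replicate 4 was far above the other libraries, and the interval of its log2 fold change ran from −0.91 to 0.07 (edgeR adjusted p = 0.251). The mitochondrial enzymes Mthfd2 and Mthfd1l had log2 fold changes of 0.13 (−0.09 to 0.36) and 0.08 (−0.19 to 0.34).

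Beside Shmt2, the progenitor transcription factor Rax was also lower in the KO-labelled libraries, with a log2 fold change of −0.40 (edgeR adjusted p = 6.52e-05). Of the 10 progenitor and neuron markers to which it belongs, 3 were higher and 3 lower, and their summed level was 4322 to 4864 CPM under the KO label against 4855 to 5267 CPM under the WT label. None was at 0 in any library. Their part in the lower Shmt2 was not tested.

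All 7 amino acid transporters had positive log2 fold changes, from 0.04 to 0.23 with a median of 0.09, and 1 was called. Over all genes tested 8074 of 15850 were positive. Of the 7 transporters, Slc7a11, Slc7a5, Slc7a3, Slc1a4 and Slc1a5 had a negative value in at least 1 of the 20 alternatives. The called gene was Slc3a2, the CD98 heavy chain that carries several Slc7 light chains to the plasma membrane. It stood at 82.1, 84.2, 87.8 and 89.2 CPM under the WT label and at 89.8, 97.0, 97.5 and 103 CPM under the KO label. The labels met without overlapping, since WT-labelled replicate 4 and KO-labelled replicate 1 differed by less than 1 CPM. The mean was 85.8 ± 3.25 CPM under the WT label and rose 1.13-fold to 96.9 ± 5.52 CPM (SD, n = 4). This was 0.17 ± 0.05 (SE) on the log2 scale, with an edgeR adjusted p = 0.0318. The call held without WT-labelled replicate 4 or KO-labelled replicate 1. It was lost without WT-labelled replicates 1, 2 or 3 (edgeR adjusted p = 0.0762, 0.0950 and 0.0666) and without KO-labelled replicates 2, 3 or 4 (0.0529, 0.0813 and 0.151).

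Neither Slc7a5 nor Slc7a11, light chains of Slc3a2 among the 7, was called. Slc7a5, the exchanger of large neutral amino acids, had a log2 fold change of 0.06 (95% interval −0.08 to 0.19). Slc7a11, which imports cystine in exchange for glutamate, was scarce at 1.74, 2.04, 2.82 and 3.62 CPM under the WT label and at 2.495, 2.91, 3.27 and 3.30 CPM under the KO label. The WT-labelled libraries spanned the whole KO-labelled range, and the interval ran from −0.25 to 0.72. Slc7a1, the arginine and lysine carrier, stood at 59.1, 54.5, 61.0 and 56.6 CPM under the WT label and at 52.5, 67.0, 65.3 and 61.1 CPM under the KO label. The lowest and the highest of its 8 values were both KO-labelled (log2 fold change 0.09, edgeR adjusted p = 0.442). Slc7a3, a second cationic carrier, and Slc1a4 and Slc1a5, exchangers of small neutral amino acids and glutamine, had log2 fold changes of 0.12, 0.04 and 0.04.

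The 11 cytosolic synthetases, which load each amino acid onto its tRNA, had the smallest median spread between libraries of a label and the smallest median absolute log2 fold change of the 5 roles. Their summed level was 1603 ± 32.6 CPM under the WT label, against 1625 ± 29.2 CPM in the KO-labelled libraries (SD, n = 4). The median log2 fold change was 0.02, and 7 of the 11 lay within 0.1 of zero. The median of their within-label standard deviations was 0.06 on the log2 CPM scale, against 0.12 over all genes tested. Such a spread also depends on the number of reads. Among the 4350 genes in the same range of mean CPM, the median within-label standard deviation was 0.08 and the median absolute log2 fold change 0.08, against 0.04 for the synthetases. These genes share the range but were not matched in level. Their median mean level was 95.9 CPM, against 123.4 CPM for the synthetases.

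Cars, the cysteinyl-tRNA synthetase, was the only one called. It stood at 53.2, 54.4, 50.5 and 49.4 CPM in WT-labelled replicates 1 to 4 and at 59.7, 57.2, 63.4 and 55.0 CPM in KO-labelled replicates 1 to 4. No library overlapped, but KO-labelled replicate 4 was close to WT-labelled replicate 2. The mean was 51.9 ± 2.32 CPM under the WT label and rose 1.13-fold to 58.8 ± 3.61 CPM (SD, n = 4). This was 0.18 ± 0.06 (SE) on the log2 scale. The edgeR adjusted p of 0.0489 was just under the threshold. Leaving out any 1 of the 8 libraries ended the call, with log2 fold changes from 0.14 to 0.21 and an edgeR adjusted p of at most 0.185. In GRCm38 a processed pseudogene on the other strand, Gm15580, shares 211 bases with the exons of Cars.

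Nars, which charges asparagine, the product of Asns, stood at 196, 227, 203 and 204 CPM under the WT label and at 223, 219, 227 and 220 CPM under the KO label. WT-labelled replicate 2 lay within the KO-labelled range and the rest of its label below it, and the log2 fold change of 0.10 (0.00 to 0.20) was not called (edgeR adjusted p = 0.173). Tars, for threonine, stood at 87.2, 99.8, 93.1 and 94.99 CPM under the WT label and at 87.1, 88.2, 86.0 and 85.1 CPM under the KO label. WT-labelled replicate 1 was inside the KO-labelled range, and the log2 fold change was −0.11 (−0.22 to −0.01, edgeR adjusted p = 0.152). Those for alanine, glycine, tryptophan, serine, methionine, isoleucine, glutamate with proline, and tyrosine had log2 fold changes from −0.10 (Iars) to 0.05 (Gars).

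**Figure D2:**
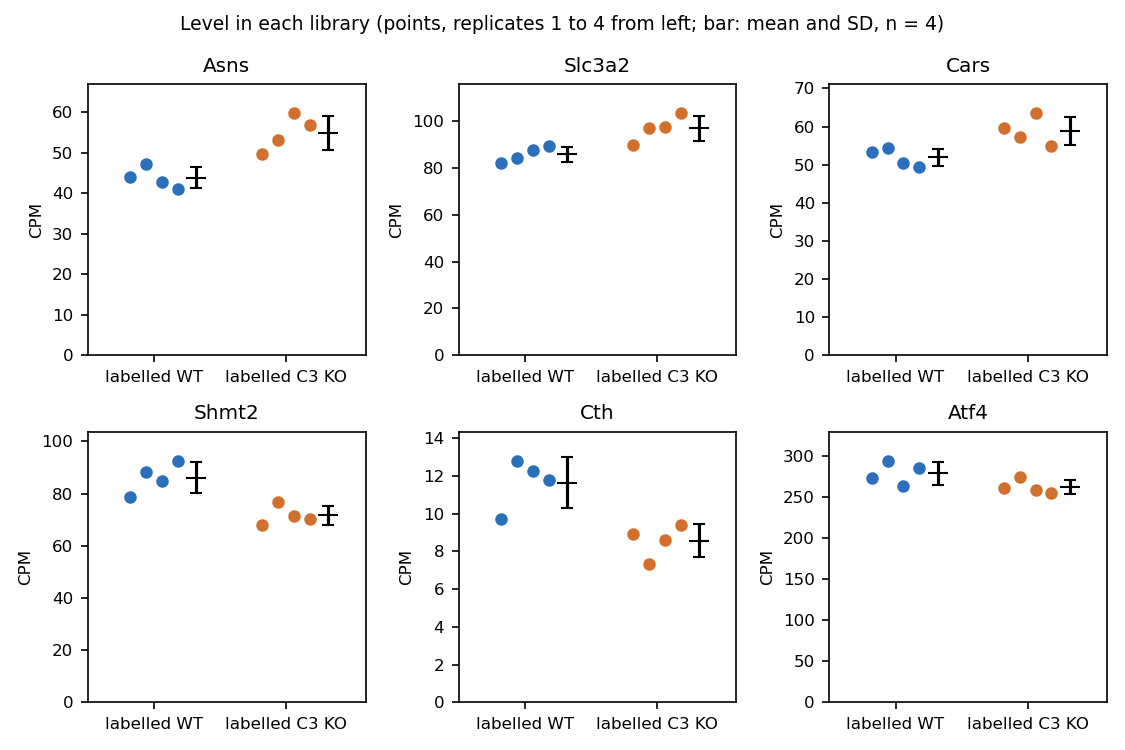
Each panel shows 1 gene, with CPM on a vertical axis from 0, a point for each of the 4 libraries of each label, and a bar for the mean and SD. The 5 called genes separate by label, with narrow gaps for Slc3a2, Cars and Cth, whereas Atf4 overlaps at 254 to 294 CPM.

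Levels of different genes were compared per gene length, on the authors' RPKM values (reads scaled to gene length and library total), returned from their log2 scale. Atf4 was the most abundant of the 37 at 162 ± 7.81 RPKM under the WT label, against 151 ± 5.90 RPKM in the KO-labelled libraries (SD, n = 4). Then came Nars (79.0 ± 4.96 RPKM under the WT label), Gars (62.0 ± 2.16 RPKM) and Sars (52.3 ± 1.49 RPKM), all separated by more than their spread. Next were Shmt2 (37.9 ± 2.68), Tars (35.7 ± 1.99) and Eprs (33.8 ± 2.37 RPKM). Here each gene differed from the one below it by less than the larger of their SDs, while Shmt2 and Eprs lay farther apart. Cars was the least abundant synthetase, at 11.2 ± 0.458 RPKM. Some genes that stress is known to induce were scarce, with Trib3 at 1.08 ± 0.304, Chac1 at 1.59 ± 0.113 and Slc7a11 at 0.238 ± 0.0762 RPKM under the WT label. They do not stand for all stress-induced genes of the set, since Asns was not among the rare ones. In serine synthesis the first enzyme was the lowest, with Phgdh at 1.72 ± 0.433 RPKM against 18.2 ± 2.31 for Psat1 and 12.7 ± 0.510 for Psph. Shmt2 exceeded its cytosolic counterpart Shmt1, which stood at 1.11 ± 0.460 RPKM. For Phgdh a pseudogene of the same name is annotated (Phgdh-ps1), and the labels do not say how reads shared between copies were handled.

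**Figure D3:**
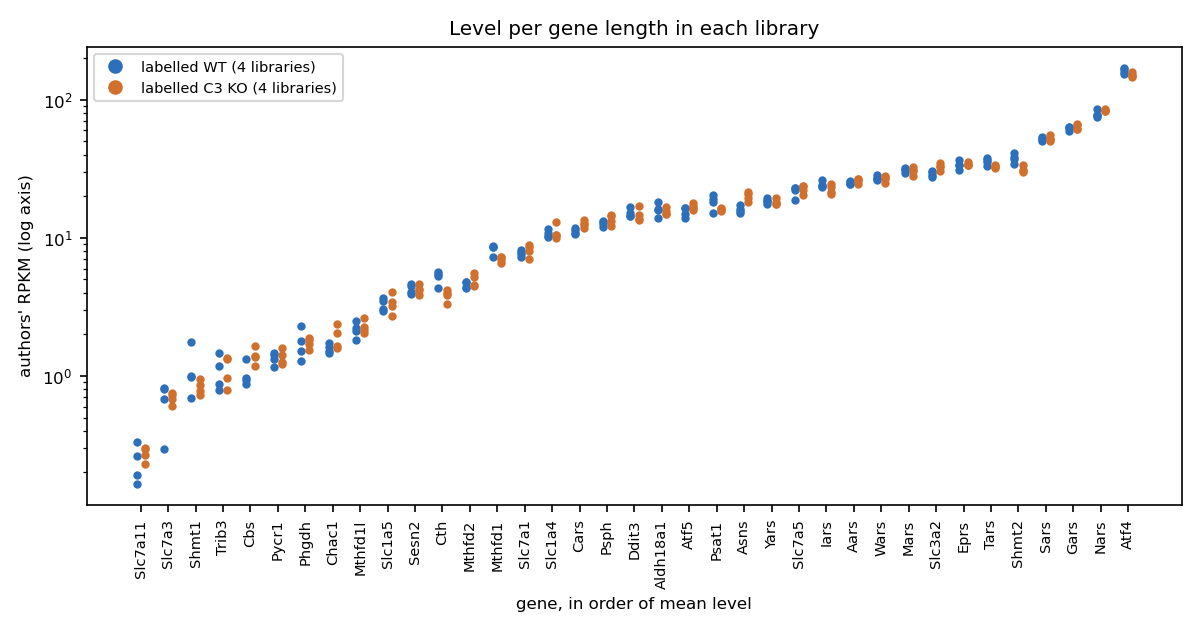
The vertical log axis gives the authors' RPKM of each of the 37 genes in each library, blue for the WT label and orange for the KO label, with genes in order of mean level. Levels span from Slc7a11 near 0.238 RPKM to Atf4 at 162 RPKM under the WT label, and for most genes both labels cover the same narrow range.

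ATF4 bound to a C/EBP partner recognises a composite element known as the C/EBP-ATF response element. Promoters of the genes were searched for its core TGATGNAA on either strand (TTNCATCA when read on the other strand), in the RefSeq window from 250 bases before to 50 after each annotated start (GRCm38.p6). Of the 37 genes 29 had an entry, and 11 of these (37.9%) held a match, against 4.51% of the 27025 genes with an entry. The form with C in the middle, TGATGCAA, was found in 8 of the 29 (27.6%) and in 1.03% of all genes. The genes were listed for their known place in this response, so a high share was built into the choice. Shown first are Asns, the called gene with a match, and Slc7a11, which holds a pair of them in opposite orientation. The core is in capitals, with 11 bases of context on each side.
Asns (chr6:7693214-7693243, minus strand): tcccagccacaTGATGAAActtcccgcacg
Slc7a11 (chr3:50443661-50443690, minus strand): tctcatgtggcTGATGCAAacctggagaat
Slc7a11 (chr3:50443642-50443671, minus strand): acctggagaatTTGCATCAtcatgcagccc

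The Asns core lay 23 to 16 bases before the start and reads TGATGAAA, with A in the variable place. The Slc7a11 cores lay at 66 to 59 and 47 to 40 bases before the start. Among the synthetases with an entry, 5 held the core and none of these was called. Shown are 4 of them.
Gars (chr6:55037960-55037989, plus strand): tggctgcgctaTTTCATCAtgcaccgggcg
Iars (chr13:49682126-49682155, plus strand): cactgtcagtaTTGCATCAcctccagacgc
Tars (chr15:11399655-11399684, minus strand): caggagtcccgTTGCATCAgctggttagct
Yars (chr4:129189895-129189924, plus strand): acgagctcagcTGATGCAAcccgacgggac

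Gars holds TTTCATCA, the reverse complement of the TGATGAAA in Asns. The other synthetases shown carry TTGCATCA or its reverse complement TGATGCAA. Outside the synthetases, matches were also found in Chac1, Pycr1, Slc1a4 and Trib3.
Chac1 (chr2:119351038-119351067, plus strand): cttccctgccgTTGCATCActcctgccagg
Pycr1 (chr11:120643833-120643862, minus strand): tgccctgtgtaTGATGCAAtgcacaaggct
Slc1a4 (chr11:20332699-20332728, minus strand): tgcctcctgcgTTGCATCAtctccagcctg
Trib3 (chr2:152344028-152344057, minus strand): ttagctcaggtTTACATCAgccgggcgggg

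Of the 11 genes with a match 1 was called (Asns), and their log2 fold changes ran from −0.11 (Tars) to 0.32 (Asns) with a median of 0.04. Of the 18 without a match 2 were called (Slc3a2 and Shmt2), with a median of 0.02. Beside 14.3% called over all genes tested, these small counts are no result about the element. A match is a description of the letters and not evidence of binding.

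The other genes of the pathway, 124 tested in 8 lists, had 6 called higher and 9 called lower, 12.1% against 14.3% over all genes. Of 15 kinases, phosphatase subunits and subunits of eIF2 and its exchange factor, 1 was called. Ppp1r15b, the constitutive partner of the phosphatase that resets eIF2, was lower, at 58.1 ± 2.61 CPM against 68.2 ± 3.03 CPM (SD, n = 4), with an edgeR adjusted p = 0.00870. Of 12 further stress response genes 2 were lower and the median log2 fold change was −0.09. Cebpg, which encodes a C/EBP partner of ATF4, stood at 43.0, 46.5, 48.2 and 50.3 CPM under the WT label and at 35.5, 33.3, 37.2 and 32.6 CPM under the KO label. The labels were well apart, and the log2 fold change was −0.44 (edgeR adjusted p = 0.000166). Ddit4, an mTORC1 inhibitor induced by hypoxia and by ATF4, fell to 56.8 ± 4.09 CPM from 91.0 ± 9.53 CPM (SD, n = 4), by 0.68 on the log2 scale (edgeR adjusted p = 1.98e-06). Ppp1r15b, Cebpg and Ddit4 kept the call whichever library was left out.

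The endoplasmic reticulum chaperones and unfolded protein response genes had 2 of 18 higher. Pdia6, a disulfide isomerase, had a log2 fold change of 0.22 (edgeR adjusted p = 0.00377), and Calr, a calcium-binding chaperone, one of 0.14 (edgeR adjusted p = 0.0373). Calr lost the call whichever of the 8 libraries was left out, at an adjusted p of at most 0.118. None of the 12 remaining cytosolic synthetases and complex proteins was called by edgeR, DESeq2 or limma-voom, and 1 had an unadjusted p below 0.05 with each. That gene in the edgeR fit was Farsb, a chain of the phenylalanyl enzyme (log2 fold change 0.13, edgeR adjusted p = 0.117). Of 17 mitochondrial synthetases, Lars2, for leucine, was higher, with a log2 fold change of 0.31 (edgeR adjusted p = 0.0403). It lost the call without WT-labelled replicates 1 or 2 or KO-labelled replicates 2, 3 or 4, with adjusted p-values up to 0.110.

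In the folate and methionine cycles and glycine cleavage 2 of 16 were lower. Gldc, the decarboxylase of glycine cleavage, had a log2 fold change of −0.20 and Mtr, methionine synthase, one of −0.24 (edgeR adjusted p = 0.0180 and 0.0395). Gldc lost the call without WT-labelled replicates 2 or 4 or KO-labelled replicates 3 or 4, with adjusted p-values up to 0.0678. Mtr kept it only without WT-labelled replicate 3 or KO-labelled replicate 1, with adjusted p-values up to 0.120.

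Among 18 further transporters 2 were higher and 1 lower. Slc7a10, a carrier of serine and other small amino acids and a light chain of Slc3a2, stood at 0.410, 0.699, 0.585 and 0.845 CPM under the WT label and at 1.88, 1.98, 1.81 and 1.42 CPM under the KO label. All KO-labelled libraries were above the WT-labelled ones at this low level, with a 2.81-fold difference (edgeR adjusted p = 0.00298), or 1.49 on the log2 scale. On log2(RPKM + 1), which shrinks differences between rare transcripts, it was 0.44. Slc36a4, an amino acid carrier, had a log2 fold change of 0.21 (edgeR adjusted p = 0.0142), and lost the call without WT-labelled replicate 3 (0.0526). Slc1a2, a glutamate transporter, had one of −0.25 (edgeR adjusted p = 0.0185), and lost the call without WT-labelled replicate 2 or KO-labelled replicates 3 or 4, with adjusted p-values up to 0.0616. The astrocyte and Mueller glia markers given above, 4 with positive and 4 with negative log2 fold changes, had no common direction. Their part in the values of Slc7a10 and Slc1a2 was not tested.

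Of 16 genes of glutamine, proline and arginine metabolism 1 was higher and 3 were lower. Ass1, of arginine synthesis, and Bcat1, of branched-chain amino acid metabolism, had log2 fold changes of −0.43 and −0.18 (edgeR adjusted p = 0.0274 and 0.0263). Ass1 lost the call without WT-labelled replicates 2 or 4 or KO-labelled replicates 1, 2 or 3 (adjusted p up to 0.106), and Bcat1 without WT-labelled replicates 2 or 4 or KO-labelled replicates 3 or 4 (up to 0.104).

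With the Y-linked level as a covariate none of the 37 genes was called by edgeR, while 6 had an unadjusted p below 0.05. Asns, Shmt2 and Cth had adjusted p-values of 0.0568, 0.0512 and 0.0518 in that fit, and their log2 fold changes were 0.35, −0.31 and −0.61, farther from zero than without the covariate. Slc3a2 and Cars had adjusted p-values of 0.415 and 0.203, with log2 fold changes of 0.13 and 0.22. The covariate correlated with the label at 0.727 over the 8 libraries. Since Xist separated the labels completely, sex-linked expression and the label cannot be told apart in full by this fit. Of all genes 3.79% were called in that fit. Of the 15 other pathway genes called above, 3 kept the call with this covariate, Cebpg and Ddit4 among them, and 12 lost it. Among the latter were Ppp1r15b, Pdia6 and Slc7a10 (edgeR adjusted p = 0.0518, 0.232 and 0.154). Of the 12, Lars2 moved most in proportion, to a log2 fold change of 0.11 (edgeR adjusted p = 0.575).

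**Figure D4:**
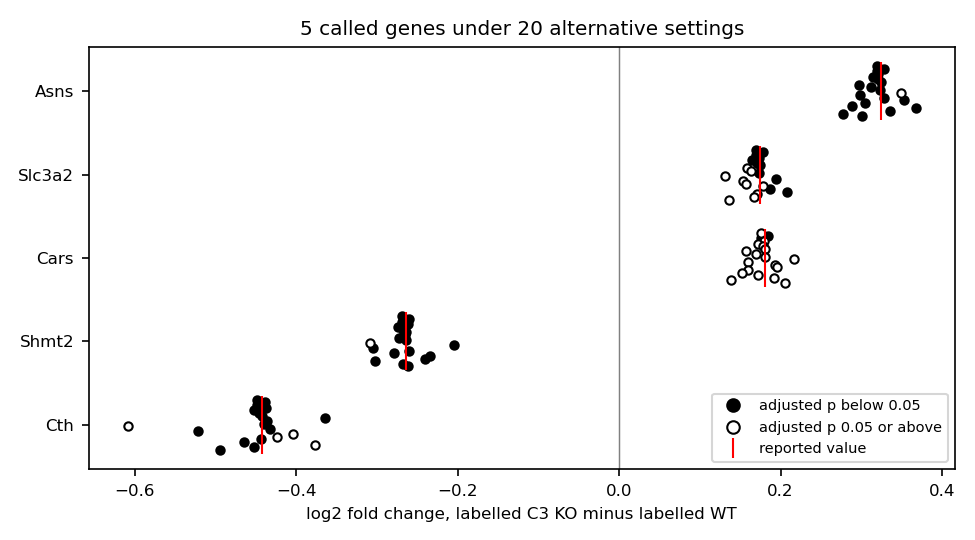
The horizontal axis gives the log2 fold change of the 5 called genes under each of 20 alternative settings, filled where the adjusted p was below 0.05 and open otherwise, with the reported value as a red line. No gene crosses zero. Asns and Shmt2 are filled in 19 of 20 settings, Cth in 16, Slc3a2 in 11 and Cars in 2.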

How the data were processed

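Poly(A) RNA of mouse retinas was sequenced from directional libraries, per the labels' protocols. The deposited table holds raw read counts per gene, made by the authors. STAR, HTSeq and the builds mm9 and NCBIM37 appear in the submitters' processing notes, with no version of either tool. A second deposited table holds RPKM on a log2 scale, and served for levels per gene length and for an alternative.

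Counts were scaled by TMM and filtered by filterByExpr, and 259 genes were left out. They were tested with edgeR 4.0.16 (robust quasi-likelihood, no covariate, R 4.3.3), 4 libraries labelled C3 KO against 4 labelled WT. Calls were made at a Benjamini-Hochberg adjusted p below 0.05 over all genes. The SE was taken from the fold change and its F statistic, and 95% intervals used the moderated degrees of freedom. The procedure was tested on simulated counts with known changes. These had the same dispersion for every gene and no sex difference between libraries. Libraries of a label differed beyond sampling noise (chi-square per degree of freedom at least 3.70). Rare genes such as Trib3 and Slc7a11 have wide intervals in these libraries.

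The genes and lists were chosen with earlier results of these data known. Values in every library are given for called genes and for the 3 genes of smallest p in each role. Other lists give called genes, or else the one of smallest p. Gene symbols were matched to GENCODE M21 and RefSeq (GRCm38), whose build differs from that of the counts. Coordinates belong only to the RefSeq sequences. Alternatives were RLE and upper quartile scaling, DESeq2 1.42.0, limma-voom (limma 3.58.1), other filters, non-robust dispersion, limma on log2(RPKM + 1) or log2(RPKM + 0.1), the replicate number as a block, a Y-linked covariate, 1 surrogate variable (sva 3.50.0) and leaving out each library. Some genes and sequences are not reported here.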

Additional observations from a re-analysis of the deposited data

Results flagged for a closer look

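Mthfd1, the cytosolic folate enzyme, stood at 23.9 CPM in WT-labelled replicate 1, apart from the other libraries of that label at 28.1 to 28.8 CPM. The gap took 0.859 of the range of the 4 libraries, above Dixon's critical value. This was the 1 outlier among 74 groups examined, 37 genes under each label, where chance gives about 1 in 20.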

How the results depend on the processing

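Under the 20 alternatives none of the 5 called genes changed sign, and none kept its call in every alternative. On log2(RPKM + 1) 1490 genes were called over the whole table and on log2(RPKM + 0.1) 1479, against 2269 in the counts, and 1 of the 37 genes was called higher on either scale. With the Y-linked covariate 601 genes were called, with 0 of the 37 higher and 0 lower by edgeR, and 6 at an unadjusted p below 0.05. Leaving out 1 library gave 1305 (without KO-labelled replicate 4) to 2543 genes (without WT-labelled replicate 1), with 1 to 3 of the 37 higher and 1 to 4 lower. It was 1 higher without WT-labelled replicates 1, 2 or 3 or KO-labelled replicates 2, 3 or 4, and lower were 4 without WT-labelled replicate 1 and 1 without WT-labelled replicates 2 or 3 or KO-labelled replicate 2. The cause of these shifts was not tested. Replicate numbers are shared between the labels, but deviations of same-numbered libraries correlated at −0.06 to 0.09, and only replicate 2 matched its own number best. The replicate block gave 2400 calls, with 2 of the 37 higher and 2 lower, Cars being lost. Of the 32 genes that were not called, 3 (Psat1, Mthfd1 and Cbs) were called in some alternative and 17 changed sign in at least 1. No setting moved the median of all genes by over 0.1 through scaling (0.00 with RLE, 0.01 with upper quartile).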
